A study of Oryza sativa with 2 samples.

Results

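The 4 genes described here encode enzymes that handle reactive oxygen and thiols in rice leaves: the superoxide dismutase gene SODCC.2 (LOC4344210), the ascorbate peroxidase gene APX7 (LOC4335896), the catalase gene CAT-A (LOC4328073) and the glutaredoxin gene GRXC1 (LOC4325734). They were found by symbol or synonym among 17905 genes that had a probe set annotated to a single gene. Together they had 6 probe sets, of 57258 rice probe sets on the array, and all 6 passed the filter on low signal described below. The genes were chosen from earlier results of these same arrays, so their values are a description and carry no test.

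Leaf tissue of plants with yellow leaf tips, from recombinant inbred lines labelled F9Y and called mutant, was compared with that of green plants, from lines labelled F9G and called normal green. Recombinant inbred lines are fixed by repeated selfing after a cross, and the series concerns the early-senescing rice mutant SA0420. The descriptions place both groups in the vegetative stage, name no treatment and no allele, and do not settle whether whole leaves or tips were taken, since title and description differ. The samples are therefore called yellow leaf tissue and green leaf tissue below, and the plots call the first the yellow leaf tip array, after its description. Each group had 1 single-colour array, the sources used here do not state how many plants or lines gave each RNA, and without replicates every difference below is between these 2 arrays.

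Superoxide dismutases turn superoxide into hydrogen peroxide, and the copper/zinc forms receive their copper from the chaperone CCS. Hydrogen peroxide is then removed by ascorbate peroxidases, which use ascorbate in the cytosol, chloroplast, mitochondria and peroxisomes, and by catalases, which act in peroxisomes without a reducing partner. Glutaredoxins use glutathione to reduce disulfides on other proteins, while thioredoxins do so with electrons from NADPH or ferredoxin. Reactive oxygen is known to build up in senescing leaves as chloroplasts are taken apart.

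Signals are the deposited intensities on a linear scale. A log2 difference is yellow leaf tip minus green, taken on log2 of the signal plus a pseudocount of 22.6, which understates the difference of dim genes, and centred on the median of the probe sets kept. Only probe sets whose signal averaged at least 86.0 over both arrays were kept, 28629 in all, and a gene was given the average of its kept probe sets, which measured 14697 genes. "Higher" and "lower" calls mean a log2 difference of at least 1 in size, a fold of 2. As a check of the yellow label, SGR, a gene that promotes chlorophyll breakdown, had 1725 in yellow leaf tissue and 304 in green leaf tissue. Of 6 leaf marker genes, signals ran from 32.7 to 43925 in yellow leaf tissue (median 18058) and from 8.45 to 53288 in green leaf tissue (median 22032), the low end being the small subunit gene RBCS-A. The 6 seed glutelin genes ran from 2.61 to 450 in yellow leaf tissue (median 23.8) and from 3.40 to 631 in green leaf tissue (median 76.4), with GLUA-2 at the high end. The anther gene RTS had 12.5 in yellow leaf tissue and 52.5 in green leaf tissue, and Lsi1, a silicon channel gene of roots, had 762 in yellow leaf tissue and 1244 in green leaf tissue.

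The 4 genes did not move together. SODCC.2 and APX7 had higher signals in yellow leaf tissue, GRXC1 had a much lower one, and CAT-A was lower by less than 2-fold. Of all measured genes, 5.57% were higher and 3.18% lower by this measure, and of all kept probe sets 5.82% were higher and 6.29% lower, figures that serve here only as background because the genes were chosen on this contrast. In RNA from whole tissue, fewer cells of a type and less RNA per cell cannot be told apart. Lines, yellowing, array and possibly the part of the leaf taken also differ together between the samples, and cannot be told apart.

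**Figure D1:**
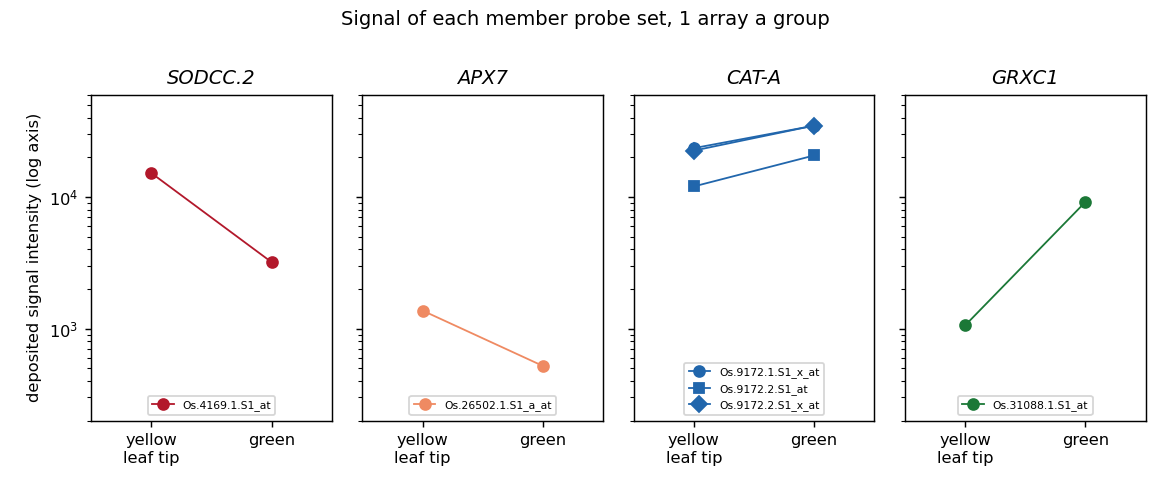
Deposited signal intensity (log axis) of the 6 probe sets of SODCC.2, APX7, CAT-A and GRXC1, with the yellow leaf tip array left of the green one in each panel and a line joining the values of 1 probe set. The lines of SODCC.2 and APX7 lie higher on the yellow leaf tip array, and those of GRXC1 and of all 3 CAT-A probe sets lie higher on the green array.

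SODCC.2, a gene for a cytosolic copper/zinc superoxide dismutase, had a signal of 15245 in yellow leaf tissue and 3203 in green leaf tissue. The deposited signals differed 4.76-fold and the log2 difference was 2.29, the 92nd highest of 14697 genes. Its 1 probe set lies in the top 20% of the kept probe sets by signal, where 14 of 5726, itself included, had a difference as high. In that class, probe sets that read 1 gene together had differences with a pooled SD of 0.22 (309 genes). That SD covers disagreement between probes, not between plants or arrays.

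Plant superoxide dismutases exist in copper/zinc, manganese and iron forms. The list, matched by symbol, held genes for copper/zinc and manganese forms, none for an iron form, and also the chaperone gene CCS, which is not a dismutase. The other cytosolic copper/zinc gene of the list, SODCC.1, had 12900 in yellow leaf tissue and 5277 in green leaf tissue, a log2 difference of 1.34. The copper chaperone gene CCS had 5850 in yellow leaf tissue and 1687 in green leaf tissue (1.83). The plastid copper/zinc gene sodCp had 12345 in yellow leaf tissue and 6441 in green leaf tissue (0.99), just under 2-fold. All 3 copper/zinc genes of the list and their chaperone thus had higher signals in yellow leaf tissue. The list may not cover every superoxide dismutase gene. The manganese form of mitochondria, sodA, did not show this: its brighter kept probe set had 4630 in yellow leaf tissue and 4076 in green leaf tissue (0.23), and its dimmer one 102 in yellow leaf tissue and 181 in green leaf tissue (-0.66). Both of these sodA probe sets may cross-hybridize with related transcripts, and their mean difference was -0.21. In all, 3 of the 5 measured genes of this list were higher and 0 lower, beside 5.57% and 3.18% of all measured genes. The higher ones include SODCC.2, which was chosen on this contrast, and the chaperone gene CCS. The list's median was 1.34, beside 0.08 over all measured genes. Without SODCC.2, 2 of 4 were higher, CCS included, and the median was 1.16.

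APX7, a gene for an ascorbate peroxidase of the chloroplast stroma, had a signal of 1371 in yellow leaf tissue and 521 in green leaf tissue. The deposited signals differed 2.63-fold, and the log2 difference of 1.41 was the 399th highest of all genes. Its 1 probe set lies in the next 20% by signal, where 123 of 5726 probe sets, itself included, were as high. The difference is thus less rare among probe sets of like signal than that of SODCC.2.

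Of the 6 other measured ascorbate peroxidase genes, 0 were higher and 0 lower, beside 5.57% and 3.18% of all measured genes. With so few genes, this does not set APX7, which was chosen on this contrast, apart from its family. APX8, which encodes the thylakoid-bound enzyme of the same organelle, had 15763 in yellow leaf tissue and 20433 in green leaf tissue, a log2 difference of -0.32 and the lowest of the list. The cytosolic APX1 had 9595 in yellow leaf tissue and 8748 in green leaf tissue (0.18). The cytosolic APX2 averaged 0.14 on 3 kept probe sets that spanned 0.64, from -0.14 to 0.50. APX4, of peroxisomes, differed by -0.26. APX5 and APX6, which are next to each other in the gene table, differed by 0.32 and 0.46. The list's median over 7 measured genes was 0.18, and 0.16 over the 6 without APX7. APX3 had no probe set annotated to it.

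CAT-A, a gene for a peroxisomal catalase, was read by 3 very bright probe sets. The first had 23542 in yellow leaf tissue and 34893 in green leaf tissue (log2 difference -0.52). The second, the only one of the 3 not marked as open to cross-hybridization, had 12042 in yellow leaf tissue and 20712 in green leaf tissue (-0.73), and the third 22540 in yellow leaf tissue and 34932 in green leaf tissue (-0.58). The 3 differences had an SD of 0.11 between probe sets and a mean of -0.61, so each pointed the same way at a size below 2-fold. Of the 14697 genes, 9.63% had a value as low or lower. Very bright probe sets as a group also lay below 0: the 812 with a mean signal of at least 10000 had a median of -0.15, and 10.3% of them were at or below the CAT-A value. After quantile normalization CAT-A stood at -0.43, and after levelling by loess on signal at -0.45.

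CAT-B, the other catalase gene measured, had a log2 difference of -0.15 over 5 probe sets that disagreed by 1.24. Its 2 brightest probe sets had 4714 in yellow leaf tissue and 4946 in green leaf tissue (-0.02), and 3505 in yellow leaf tissue and 4021 in green leaf tissue (-0.15). Neither catalase gene was higher or lower by 2-fold, beside 5.57% higher and 3.18% lower of all measured genes. The symbol CAT-C was also looked for and matched no gene, so the list may not cover every catalase gene.

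**Figure D2:**
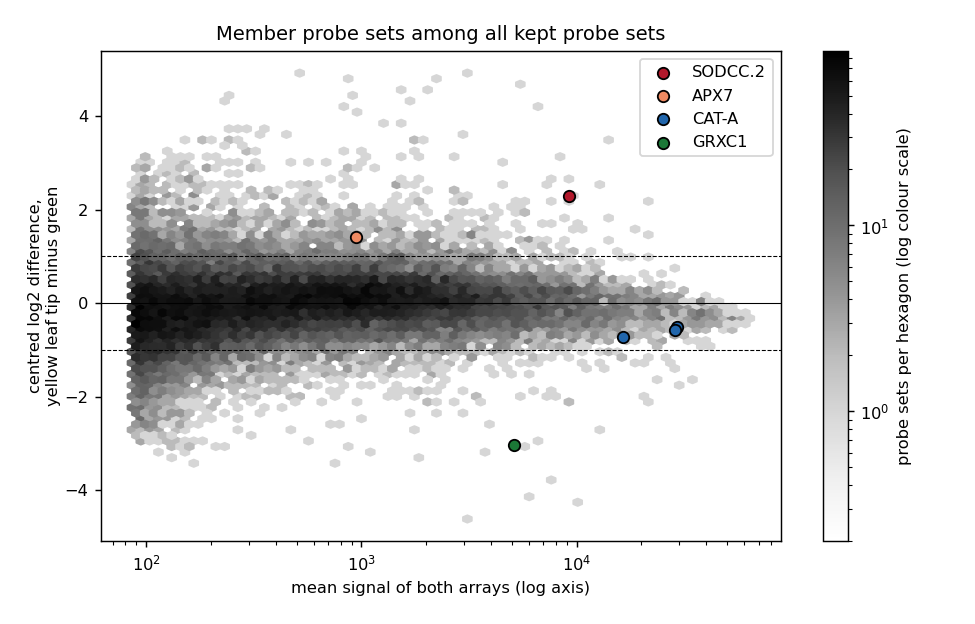
Centred log2 difference (yellow leaf tip minus green) against the mean signal of both arrays (log axis) for the 28629 kept probe sets, shaded by their number per hexagon, with the 6 probe sets of SODCC.2, APX7, CAT-A and GRXC1 in colour and dashed lines at 1 and -1. SODCC.2 and GRXC1 stand at the upper and lower edge of the cloud for bright probe sets, and the 3 CAT-A points lie between 0 and -1 where the bright end of the cloud is itself below 0.

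GRXC1, a glutaredoxin gene, had a signal of 1059 in yellow leaf tissue and 9190 in green leaf tissue. The deposited signal was 8.68-fold higher in green leaf tissue, and the log2 difference of -3.04 was the 7th lowest of 14697 genes. Its 1 probe set is in the top 20% by signal, where 6 of 5726, itself included, were as low. Both signals lie above the 42 bacterial control probe sets, which reached 56.9 for yellow leaf tissue and 97.6 for green leaf tissue, and so do those of SODCC.2, APX7 and CAT-A.

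Most other glutaredoxin genes differed by less than 2-fold. Of 17 measured genes, GRXC1 included, 2 were higher and 2 lower, beside 5.57% and 3.18% of all measured genes, and the median was 0.04. GRXC7 had 4011 in yellow leaf tissue and 1237 in green leaf tissue, a log2 difference of 1.73 and the highest of the family. GRXS2 had 2253 in yellow leaf tissue and 761 in green leaf tissue (1.59), although that probe set may cross-hybridize. GRXC15 was lower, with 445 in yellow leaf tissue and 1280 in green leaf tissue (-1.43). The other 13 measured members lay between -0.77 for GRXS5 and 0.72 for GRXS11. Without GRXC1, 2 of 16 were higher, 1 was lower, and the median was 0.10. GRXC3, with 2.40 in yellow leaf tissue and 4.47 in green leaf tissue, was the 1 gene of the family below the filter.

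**Figure D3:**
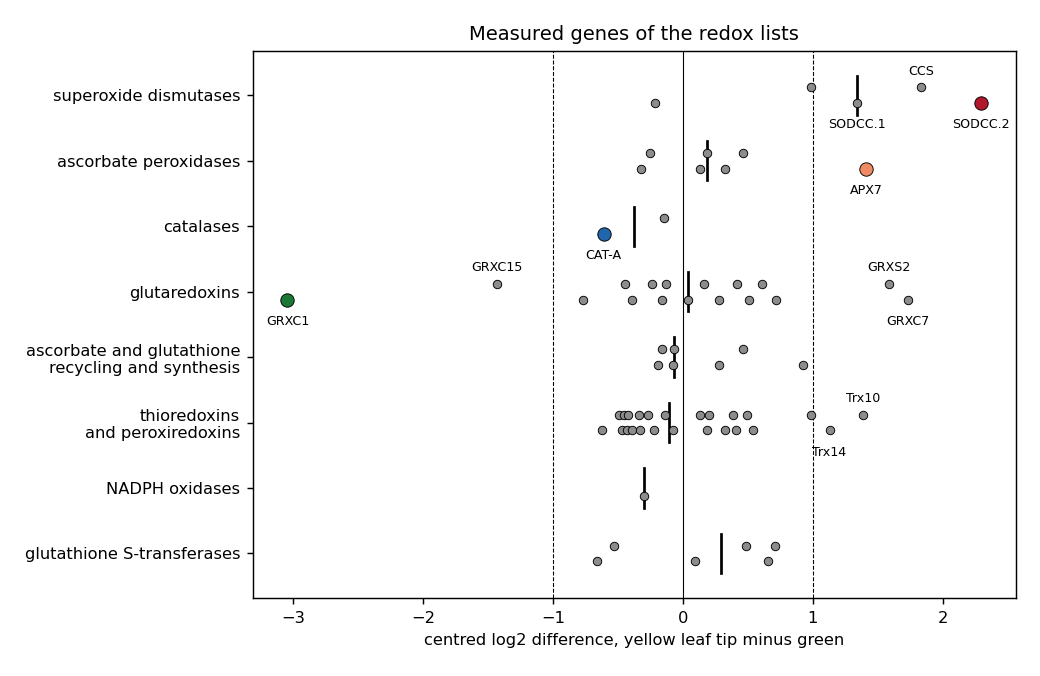
Centred log2 difference (yellow leaf tip minus green) of each of the 69 measured genes of 8 redox lists, 1 point a gene, with the members in colour, a vertical bar at each list's median and dashed lines at 1 and -1. The median of the superoxide dismutase list, which includes the chaperone gene CCS, is 1.34. The other medians lie between -0.38 for the catalases and 0.29 for the glutathione S-transferases.

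Further genes of the same pathways were read as a background to the 4. The enzymes that make and recycle ascorbate and glutathione had 0 of 7 genes called in either direction and a median of -0.07. Of all measured genes, 5.57% were higher and 3.18% lower. Glutathione reductase, GR, had 4317 in yellow leaf tissue and 4680 in green leaf tissue (-0.07). The gene nearest the threshold was GME-2, for a GDP-mannose epimerase of ascorbate synthesis, with 4324 in yellow leaf tissue and 2348 in green leaf tissue (0.92). The lowest was the glutathione synthesis gene GSH1-1 at -0.19.

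Of 24 thioredoxin and peroxiredoxin genes, 2 were higher (8.33%) and 0 lower, beside 5.57% and 3.18% of all measured genes. Their median was -0.11. Trx10, which the gene table also lists as the h-type Trxh2-2, had 7919 in yellow leaf tissue and 3119 in green leaf tissue (1.39). Trx14, also listed as Trxm2 of the m type found in chloroplasts, had 3516 in yellow leaf tissue and 1653 in green leaf tissue (1.13). Another m-type gene, Trxm5, was the lowest of the list, with 16340 in yellow leaf tissue and 25876 in green leaf tissue (-0.62), on probe sets that may cross-hybridize. The 1 NADPH oxidase gene matched, rbohB, which produces superoxide outside the cell, differed by -0.30. None of 6 glutathione S-transferase genes reached 2-fold: GSTU6 was highest at 0.71 and GST-I lowest at -0.66.

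Over all redox lists, 8 of 69 measured genes were higher (11.6%) and 2 lower (2.90%), beside 5.57% and 3.18% of all measured genes. The median of the lists was 0.10 and that of all genes 0.08. Without SODCC.2, APX7, CAT-A and GRXC1, 6 of 65 were higher (9.23%) and 1 lower (1.54%). These lists came from gene symbols, and 84 genes matched, of which 70 had a probe set.

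The genes with a name whose difference lay nearest to each of the 4 were found over both arrays by the gap between the log2 differences. This measure rests on 1 difference per gene, so among 2034 named genes near matches arise easily. SODCC.2 was nearest to the beta-glucosidase gene BGLU22 (gap 0.009) and then to BLE3, whose 43.4 in green leaf tissue lies within the range of the bacterial controls, so that its gap has no reliable value. APX7 was nearest to the thioredoxin gene Trx10 (0.021) and to ADK-A, an adenylate kinase gene (0.032). CAT-A was nearest to the D-type cyclin gene CYCD5-2 and to the zinc finger gene C3H10, with gaps of 0.0003 and 0.002. For GRXC1 the rule gave ACS1, of ethylene synthesis, and the aquaporin gene PIP2;5. Their signals of 14.8 and 49.5 in yellow leaf tissue lie within the range of the bacterial controls, so their gaps have no reliable value either.

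Genes next to the 4 in the order of the RefSeq gene table of assembly ASM3414082v1 had differences between -0.06 and 0.38 where they were measured. Beside GRXC1, LOC4325733 had 173 in yellow leaf tissue and 169 in green leaf tissue (0.08), and LOC4325735 differed by 0.38. Beside CAT-A, LOC4328072 differed by -0.06 and BIP1, a chaperone gene of the endoplasmic reticulum, by 0.28. The neighbours of SODCC.2 and APX7 had no probe set annotated to them.

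**Figure D4:**
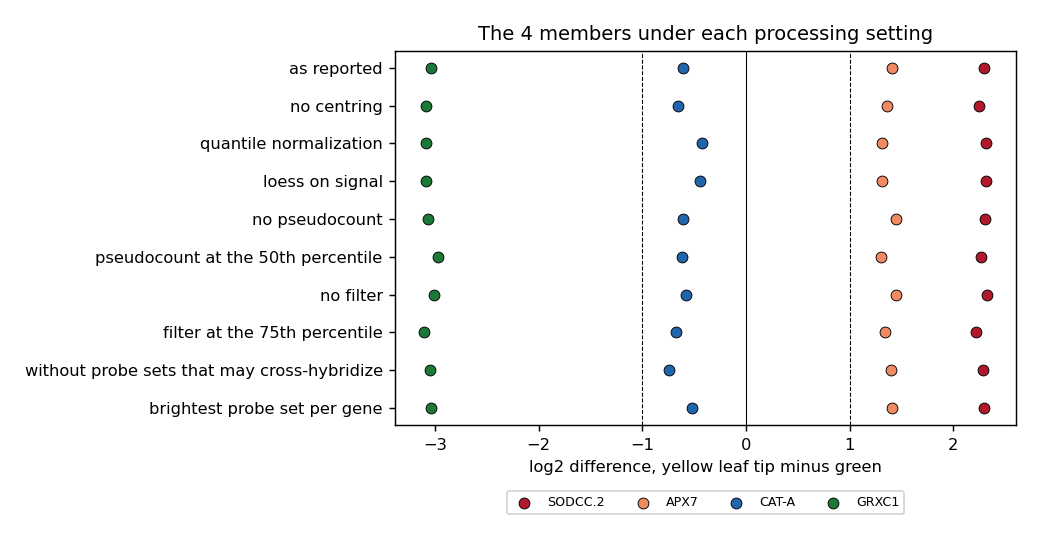
Log2 difference (yellow leaf tip minus green) of SODCC.2, APX7, CAT-A and GRXC1 as reported and under 9 other processing settings, 1 row a setting, with dashed lines at 1 and -1. SODCC.2 runs from 2.22 to 2.33, APX7 from 1.30 to 1.45, CAT-A from -0.74 to -0.43 and GRXC1 from -3.11 to -2.97, so none of the 4 crosses a dashed line.

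Across the 9 other settings of scaling, pseudocount, filter and probe set choice, each of the 4 kept its sign and its side of the 2-fold threshold. The probe set choices changed the probe sets read for CAT-A alone. The other 3 genes have 1 probe set each, and none of these is marked as open to cross-hybridization. For these 3, leaving out the centring, changing the filter or dropping probe sets that may cross-hybridize changed only the median used for centring. That moved all 3 by the same small amount, and the brightest probe set setting left them unchanged. These settings were therefore little test of their sign or side. The ranges were 2.22 to 2.33 for SODCC.2, 1.30 to 1.45 for APX7, -0.74 to -0.43 for CAT-A and -3.11 to -2.97 for GRXC1. Near the threshold, sodCp ran from 0.92 to 1.04 and Trx01, an h-type thioredoxin gene also listed as Trxh4-1, from 0.89 to 1.02, so their place on either side of 2-fold depends on the setting. SODCC.1 ran from 1.27 to 1.39 and CCS from 1.76 to 1.87.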

How the data were processed

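The deposited table gives signal intensity on a linear scale, 1 value per probe set and array, as the authors deposited it; which software and scaling produced it is not stated in the sources used here. Per the labels' protocols, total RNA was made into biotinylated cRNA. Leaving out the lowest and highest 2% of values, both arrays had a mean of 500.0. The 123 control probe sets were left out. The pseudocount was the 25th percentile of all values, and the filter the 50th percentile of the means of both arrays. The centring shift was -0.05. Probe sets were tied to genes through the platform annotation (22436 with 1 gene, 95 with several, 34727 with none listed), and all 17905 genes were matched by identifier to RefSeq genes of assembly ASM3414082v1, used for names and neighbours only. Probe sets whose names end in _s_at or _x_at may cross-hybridize.

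The 4 members and the lists were chosen with earlier results of these data known. Lists were matched by symbol or synonym with a leading Os dropped. After the names were seen, 7 genes were taken out: TRX1, also listed as a SET domain gene, and CCS1, ccsA and AO-1 to AO-4, whose symbols may name cytochrome c assembly and aldehyde oxidase genes, which the gene table does not settle. Glutathione peroxidases gave no match and were not analysed here. Named genes were the 4 members, the called, highest and lowest genes of each list, the 2 nearest named genes of each member and SGR. Markers, remaining family members, genes near the threshold and neighbours were named in addition, the last 3 after values were seen. A planned search of promoter motifs was not run, since no sequences were used here. With 1 array per group no test was possible, and precision is limited by the number of arrays. The calculation was tested on simulated data, with large differences planted in bright probe sets only. Recovery of differences near the threshold, or of those in dim probe sets, was not examined. Python 3.11.15, pandas 2.3.3, numpy 2.4.6 and statsmodels 0.14.6 were used.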

Additional observations from a re-analysis of the deposited data

How the results depend on the processing

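The sign and the side of the 2-fold threshold held for SODCC.2, APX7, CAT-A and GRXC1 under the 9 alternatives, and for the 3 CAT-A probe sets taken singly, a choice made after seeing the data. For SODCC.2, APX7 and GRXC1 the settings of centring, filter and probe set choice tested little, since they changed the centring at most. A shift was counted where a value moved by more than 0.46, the SD between probe sets of 1 gene, or a count by more than 1.5 times. The counts of all kept probe sets, 1665 higher and 1800 lower, became 1100 and 863 with a pseudocount at the 50th percentile, 5333 and 5478 unfiltered, 582 and 433 under a stricter filter (75th percentile), and 312 and 261 at a log2 threshold of 2. A stricter threshold or filter gives fewer calls by construction; beyond that the cause was not tested. At a log2 threshold of 2 the redox lists held 1 higher gene, SODCC.2, and 1 lower, GRXC1. Both are among the 4 genes chosen on this contrast. Over all 28629 kept probe sets, 312 were higher and 261 lower at that threshold, and the share of genes was not calculated. At the threshold of 1 and without the 4 members, a choice made after seeing the data, the redox lists held 6 higher and 1 lower. With the 7 genes taken out for doubtful symbols put back, also chosen after seeing the data, 9 of 74 were higher and 2 lower, with a median of 0.06. Of all measured genes, 5.57% were higher and 3.18% lower at this threshold. Under the 9 alternatives the lists held 7 to 11 higher and 2 lower genes. Over all genes these settings gave 3.79% to 7.68% higher and 1.78% to 4.40% lower. The 11 came without a filter, where 70 list genes were measured and the share over all genes was 7.68%. Outside the 4, PRXIIC moved to 0.10 with the brightest probe set, and without a filter Trx18 moved to 1.01 and Trx20 to 0.47. No paired analysis was possible because each group had 1 array. The SD between probe sets was 0.85 in the lowest 20% by signal and 0.22 in the top 20%.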
